A study of Homo sapiens with 6 samples.

Results

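The 9 long noncoding RNAs MALAT1, NEAT1, GAS5, SNHG1, SNHG5, SNHG6, SNHG7, SNHG8 and SNHG12 were followed in MCF12A cells that stably over-expressed miR-424 and in MCF12A cells with an empty vector (EV). MCF12A is an immortalized line of human mammary epithelial cells, generally described as non-tumorigenic, although the labels call it a cancer line. Each of the 2 groups held 3 samples, grown in triplicate for 48 hours, and expression was measured by sequencing of mRNA libraries from total RNA. The labels do not say whether a group came from more than 1 derivation of the line, and a p-value here speaks only of the spread between these samples, possibly a technical one. The RNAs were found by their symbols in the authors' table of FPKM values, which gave 9 of 24294 loci, and NEAT1 was then taken by its accession, as described below. All 9 RNAs passed the filter of a mean of at least 1 FPKM, as did 11574 loci in all.

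Long noncoding RNAs of this kind work without being translated. NEAT1 builds the paraspeckle, a nuclear body, and MALAT1 collects in nuclear speckles next to splicing factors. The other RNAs are what remains after small nucleolar RNAs (snoRNAs) are cut from the introns of a host gene. snoRNAs of the box C/D class guide methylation and those of the H/ACA class guide pseudouridylation of ribosomal RNA. Many of these host genes start with a pyrimidine tract like that of ribosomal protein genes, and the spliced host RNAs are often short-lived because they are degraded by nonsense-mediated decay. microRNAs such as miR-424 lower RNAs mainly through matches to their seed, the bases near their 5′ end.

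The seed is shown first with its matches in the 9 RNAs, since it is the sequence by which the over-expressed microRNA could pair with them. In the mature sequence from RefSeq (GRCh38.p14, chromosome X, minus strand) the capitals mark bases 2 to 8, and in the matches, from GENCODE 29 transcripts (GRCh38), they mark TGCTGCT.
hsa-miR-424-5p: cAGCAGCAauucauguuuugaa
MALAT1, position 172: gcgacgagttgTGCTGCTatcttagctgtc
MALAT1, position 731: cagacagcccgTGCTGCTccgatttctcga
SNHG12, position 31: ccgctagtcgcTGCTGCTggcgcgcactcg
Positions count from the 5′ end of the transcript, and only the transcript strand was searched. The first match in MALAT1 is followed by an A, which extends it to TGCTGCTA. The transcripts matched to the rows of the other 7 RNAs held 0 copies of TGCTGCT, while the long form of NEAT1, which has no row of its own under that symbol, holds 3. Among 11472 tested loci with a transcript, 49.5% held at least 1 copy, 14.9% of those shorter than 1000 bases and 66.7% of those of at least 4000 bases. The MALAT1 transcript is 8708 bases long and that of SNHG12 682 bases. The median log2 change was -0.05 for the 5676 loci with a copy and -0.04 for the 5796 without one. Copies were counted anywhere in the longest matched transcript, and matches in 3′ untranslated regions were not looked at apart.

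The over-expression was visible in the host locus of the microRNA, listed as MGC16121/MIR424, at 107, 106 and 224 FPKM in miR-424 replicates 1, 2 and 3 against 0.989, 1.27 and 1.23 FPKM in EV replicates 1, 2 and 3. These values do not measure the mature microRNA. Of all tested loci, 144 rose and 731 fell in miR-424 cells (limma, threshold of 0.05 on the Benjamini-Hochberg adjusted p), so that 7.56% were past the threshold. The median log2 change over these loci was -0.05, and 68.3% of them had a log2 change below 0. miR-424 replicate 3 stood apart from the other libraries. Over loci, its median absolute log2 distance from miR-424 replicates 1 and 2 was 0.142 and 0.152. The distance between replicates 1 and 2 was 0.0408, and EV libraries were 0.0357 to 0.0417 apart. As a check of the labelled cell type, 9 of 11 epithelial and basal markers were at 1 FPKM or more, among them the keratin gene KRT8 at 160 FPKM in miR-424 cells and 164 FPKM in EV cells. The list also held the vimentin gene VIM, its highest member, at 1000 FPKM in miR-424 cells and 970 FPKM in EV cells. EPCAM averaged only 2.84 and 2.60 FPKM. Of the 11 markers 3 passed the limma test (Benjamini-Hochberg). KRT5 averaged 40.7 FPKM in miR-424 cells and 63.7 FPKM in EV cells (adjusted p = 0.00415 from limma), the integrin gene ITGB4 10.4 and 14.9 FPKM (0.00655) and KRT14 4.36 and 2.25 FPKM (0.0165). E-cadherin (CDH1) and TP63 were near 0 in both groups, the first at 0.0183 FPKM in miR-424 cells and 0.0228 FPKM in EV cells. All 4 endothelial markers were under 1 FPKM, with sums of 0.224 to 0.282 FPKM in miR-424 libraries and 0.288 to 0.322 FPKM in EV libraries. The leukocyte markers PTPRC, CD14 and CD3E were under 1 FPKM, and the sums of the leukocyte list, nearly all from CD68, were 53.0 to 58.8 FPKM in miR-424 libraries and 54.9 to 57.6 FPKM in EV libraries. Of 6 fibroblast markers 4 were under 1 FPKM, and sums, carried by COL1A1 and DCN, were 164 to 185 FPKM in miR-424 libraries and 156 to 166 FPKM in EV libraries. COL1A1 rose, at 45.2 FPKM in miR-424 cells and 39.0 FPKM in EV cells (limma with Benjamini-Hochberg, adjusted p = 0.0456), and DCN, at 130 and 120 FPKM, did not pass (adjusted p = 0.347). The part of these markers in the results below was not tested.

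Among the 9 RNAs, 1 fell in miR-424 cells, SNHG7, and 0 rose, against 6.32% of tested loci that fell. All 9 log2 changes were below 0 with the values as deposited, as were those of 68.3% of tested loci. They lay between -0.29 and -0.03 with a median of -0.11, beside -0.05 over all tested loci. With median-of-ratios scaling 8 of the 9 were below 0 and GAS5 was at 0.02, while the median over all tested loci was 0.0033. For 4 of the 9 RNAs, NEAT1, SNHG1, SNHG7 and SNHG12, every miR-424 library lay below every EV library, which was also the case for 26.9% of tested loci. The opposite, every miR-424 library above every EV library, was seen for 0 of the 9 RNAs and 6.59% of loci. Without miR-424 replicate 3, 6 of the 9 fell, against 22.2% of loci that fell in that setting. The mean of miR-424 replicates 1 and 2 minus that of EV moved with the GC content of the transcript, with a median of 0.06 under 42% GC and -0.09 at 55% GC or more. Without replicate 3 and with the GC trend removed 4 fell, NEAT1, SNHG1, SNHG6 and SNHG7, against 15.1% of loci. In bulk RNA, less RNA per cell and fewer cells carrying an RNA cannot be told apart.

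**Figure D1:**
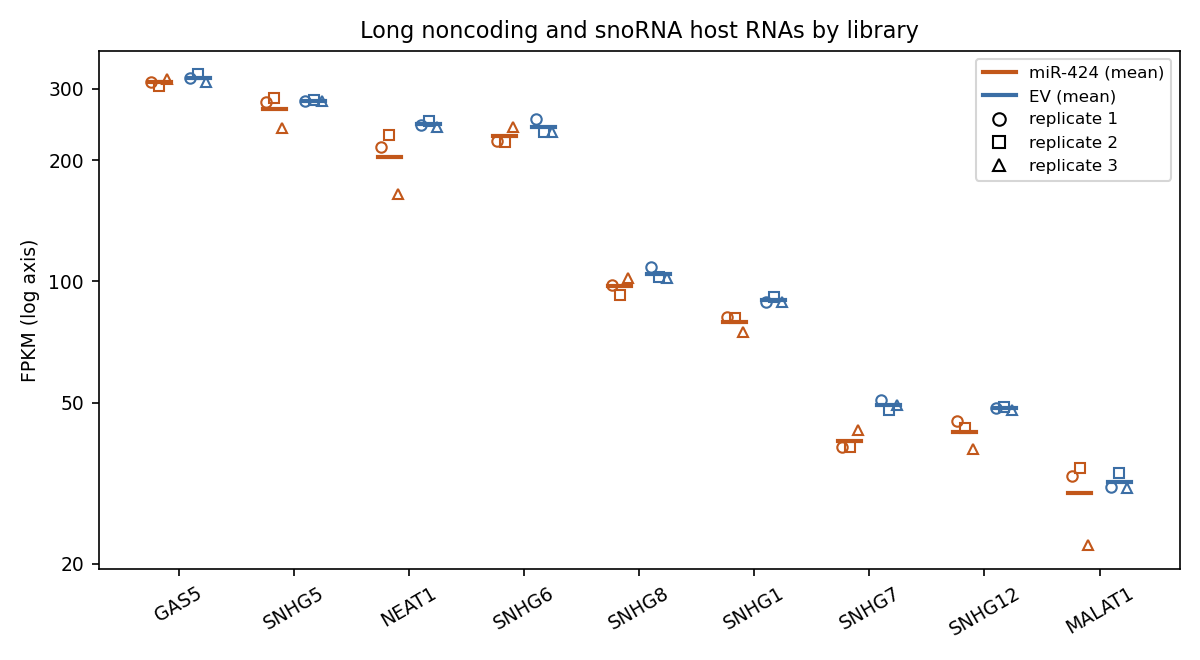
FPKM (log axis) of the 9 RNAs in each library, miR-424 in orange left of EV in blue, with marker shapes for replicates 1 to 3 and a bar at each group mean (n = 3 each). EV values lie close together for each RNA, and miR-424 replicate 3 lies far below replicates 1 and 2 for NEAT1 and MALAT1.

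The levels, which FPKM gives per length of transcript, were spread widely over the 9 RNAs. In both groups GAS5 had the highest mean, 312 FPKM in miR-424 cells and 319 FPKM in EV cells, and MALAT1 the lowest, 29.9 and 31.8 FPKM. GAS5 ranked above 98.5% of tested loci by its mean over the 6 samples and MALAT1 above 78.8%. In miR-424 cells the order below GAS5 was SNHG5, SNHG6, NEAT1, SNHG8, SNHG1, SNHG12, SNHG7 and MALAT1. Neighbours whose libraries overlapped there were SNHG5 with SNHG6, SNHG6 with NEAT1, and SNHG12 with SNHG7. In EV cells NEAT1 stood above SNHG6 and SNHG7 above SNHG12, and those were the neighbours that overlapped.

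NEAT1, the scaffold of paraspeckles, needs a remark on its row. The row whose symbol reads NEAT1 covers chromosome 11, 65211929 to 65212028 (hg19), and its accession is that of MIR612, a microRNA gene that RefSeq places inside the long form of NEAT1. Its 3 miR-424 values were all listed at 0. EV replicates 1, 2 and 3 had 0.701, 0.344 and 0.366 FPKM, so that it stayed under the minimum for testing. The short, polyadenylated form of NEAT1 was found by its accession in a row with a blank symbol at chromosome 11, 65190269 to 65194003. The long form covers this stretch too, so the row cannot tell it from the short form. This row was chosen after the table was seen. Of all loci, 643 had a blank symbol, and 82 carried a symbol that RefSeq gives to another gene than the one of their accession.

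The NEAT1 row had 215, 230 and 165 FPKM in miR-424 replicates 1, 2 and 3, against 244, 249 and 242 FPKM in EV replicates 1, 2 and 3. All 3 miR-424 libraries were below the EV libraries, replicate 3 by the widest gap. The log2 change was -0.28 ± 0.12 (SE; 95% interval -0.56 to -0.00307; limma with Benjamini-Hochberg, adjusted p = 0.207) and did not pass the test. Without miR-424 replicate 3 the log2 change was -0.14 and passed (limma with Benjamini-Hochberg, adjusted p = 0.0130; the 16 alternatives gave 0.0130 to 0.440). It also passed without replicate 3 and with the GC trend removed (-0.12, limma with Benjamini-Hochberg, adjusted p = 0.0201).

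MALAT1 (chromosome 11, 65265233 to 65273939, hg19), which associates with splicing speckles, lies next to NEAT1 in the genome. It had 33.0, 34.6 and 22.2 FPKM in miR-424 replicates 1, 2 and 3, against 30.9, 33.6 and 30.8 FPKM in EV replicates 1, 2 and 3. Replicates 1 and 2 lay within or just above the EV range, and replicate 3 lay below it. The log2 change was -0.11 ± 0.16 (SE; 95% interval -0.48 to 0.27; limma with Benjamini-Hochberg, adjusted p = 0.743), and without replicate 3 it was 0.09 (adjusted p = 0.151). MALAT1 is the RNA with 2 seed matches, and its interval spans 0. The mature 3′ end of MALAT1 is known to carry no poly(A) tail, but a triple helix between U-rich motifs and an encoded A-rich tract, all in capitals in the stretch of the GENCODE transcript from position 8263 to 8360.
MALAT1, 3′ end: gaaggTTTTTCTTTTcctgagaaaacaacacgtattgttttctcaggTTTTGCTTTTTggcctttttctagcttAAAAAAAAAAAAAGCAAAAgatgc
In the annotated transcript 353 bases follow the A-rich tract. How an mRNA library captures such an end was not tested.

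Replicate 3 of the miR-424 group set MALAT1 and NEAT1 apart from most host RNAs. The log2 value of replicate 3 minus the mean of replicates 1 and 2 was -0.58 for MALAT1 and -0.43 for NEAT1, lower than for all but 0.890% and 4.18% of tested loci. For SNHG7, SNHG6, SNHG8 and GAS5 it was 0.13, 0.12, 0.10 and 0.04, and for SNHG1, SNHG12 and SNHG5 it was -0.12, -0.19 and -0.23. The other tested snoRNA hosts described below ran from -0.37 (ZFAS1) to 0.29 (SNHG9), so a low replicate 3 was not particular to MALAT1 and NEAT1. The median over tested loci was -0.09. This difference moved with the GC content of the transcript, from a median of -0.26 under 42% GC to 0.04 at 55% GC or more. MALAT1 has 40.3% GC, NEAT1 48.4% and ZFAS1 56.5%. With the GC trend removed the difference was -0.35 for MALAT1 and -0.35 for NEAT1, still lower than for all but 1.72% and 1.80% of loci.

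**Figure D2:**
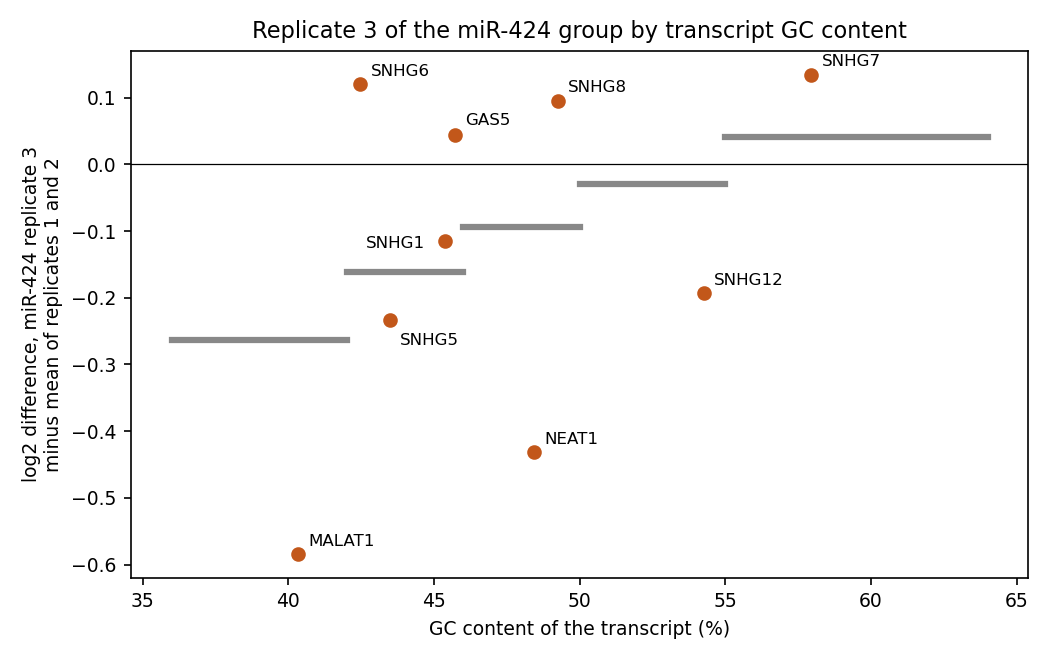
Difference of miR-424 replicate 3 from the mean of miR-424 replicates 1 and 2 on the log2(FPKM + 1) scale (vertical) against GC content of the transcript in percent (horizontal) for the 9 RNAs (points), with the median of tested loci in 5 ranges of GC content (grey bars, the outer 2 cut short at the plot's edges). MALAT1 at -0.58 and NEAT1 at -0.43 lie far below the bars at their GC content.

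Of the hosts of box C/D snoRNAs, GAS5 (bundle at chromosome 1, 173832386 to 173837125, hg19) is named for its rise in growth-arrested cells. It had 312, 306 and 318 FPKM in miR-424 replicates 1, 2 and 3, against 320, 326 and 312 FPKM in EV replicates 1, 2 and 3. The groups overlapped, and the log2 change of -0.03 ± 0.04 had the narrowest interval of the 9 RNAs (SE; 95% interval -0.12 to 0.05; limma with Benjamini-Hochberg, adjusted p = 0.634). With median-of-ratios scaling the change was 0.02. GAS5-AS1, which shares the bundle, averaged 0.495 FPKM in miR-424 cells and 0.502 FPKM in EV cells.

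SNHG1, the host of SNORD22 and of SNORD25 to SNORD31 (chromosome 11, 62619460 to 62623360), had 81.6, 81.3 and 75.1 FPKM in miR-424 replicates 1, 2 and 3, against 89.1, 91.7 and 89.1 FPKM in EV replicates 1, 2 and 3. The groups were apart, and the log2 change of -0.18 ± 0.04 (SE; 95% interval -0.29 to -0.07) missed the threshold (limma with Benjamini-Hochberg, adjusted p = 0.0585). It passed with the GC trend removed (-0.15, limma with Benjamini-Hochberg, adjusted p = 0.0186) and without miR-424 replicate 3 (-0.14, adjusted p = 0.00270), and the 16 alternatives gave adjusted p = 0.00191 to 0.243.

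SNHG5, the host of SNORD50A and SNORD50B (chromosome 6, 86386725 to 86388451), had 279, 285 and 240 FPKM in miR-424 replicates 1, 2 and 3, against 280, 282 and 279 FPKM in EV replicates 1, 2 and 3. Only replicate 3 lay outside the range of the other libraries by more than a few FPKM, and the log2 change was -0.07 ± 0.07 (SE; 95% interval -0.23 to 0.09; limma with Benjamini-Hochberg, adjusted p = 0.600). Without replicate 3 it was 0.0074. SNHG6, the host of SNORD87 (bundle at chromosome 8, 67782984 to 67837777, shared with MCMDC2), had 223, 222 and 242 FPKM in miR-424 replicates 1, 2 and 3, against 253, 235 and 235 FPKM in EV replicates 1, 2 and 3. Here replicate 3 was the miR-424 library inside the EV range. The log2 change was -0.07 ± 0.05 (SE; 95% interval -0.19 to 0.05; limma with Benjamini-Hochberg, adjusted p = 0.455), and without replicate 3 it was -0.11 and passed (adjusted p = 0.0366), as it did with the GC trend removed as well (-0.14, adjusted p = 0.0155).

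SNHG7, a host of H/ACA snoRNAs, was the RNA that fell. It had 38.8, 39.0 and 42.8 FPKM in miR-424 replicates 1, 2 and 3, against 50.9, 48.1 and 49.3 FPKM in EV replicates 1, 2 and 3. The highest miR-424 library lay below the lowest EV library. Its mean was 40.2 ± 2.25 FPKM in miR-424 cells and 49.4 ± 1.36 FPKM in EV cells (SD, n = 3 each), a ratio of 0.813. The log2 change was -0.29 ± 0.05 (SE; 95% interval -0.41 to -0.17; limma with Benjamini-Hochberg, adjusted p = 0.0201). Its row (chromosome 9, 139607024 to 139622636) also carries the symbols SNORA17 and SNORA43, whose value cannot be separated from that of SNHG7. DIPK1B, in the same bundle, averaged 0.398 FPKM in miR-424 cells and 0.690 FPKM in EV cells. The call ended with median-of-ratios scaling (-0.24, limma with Benjamini-Hochberg, adjusted p = 0.103), with quantile normalization (-0.25, adjusted p = 0.0562), and without EV replicate 1, 2 or 3 (adjusted p = 0.114, 0.0910 and 0.107) or miR-424 replicate 1 or 2 (adjusted p = 0.0750 and 0.0654). It also ended with the replicate number as a block in the fit (limma with Benjamini-Hochberg, adjusted p = 0.0579). It held without miR-424 replicate 3 (-0.34; limma with Benjamini-Hochberg, adjusted p = 0.000272) and with the GC trend removed (-0.22, adjusted p = 0.0162), and passed in 8 of 16 alternatives.

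SNHG8, the host of SNORA24 (chromosome 4, 119199917 to 119200978), had 98.3, 92.4 and 102 FPKM in miR-424 replicates 1, 2 and 3, against 108, 102 and 102 FPKM in EV replicates 1, 2 and 3. The groups overlapped by the margin between miR-424 replicate 3 and EV replicate 3, with a log2 change of -0.10 ± 0.05 (SE; 95% interval -0.21 to 0.02; limma with Benjamini-Hochberg, adjusted p = 0.304). When miR-424 replicate 3 was left out it was -0.13 and passed (limma with Benjamini-Hochberg, adjusted p = 0.0318), but not with the GC trend removed as well (-0.11, adjusted p = 0.0609).

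SNHG12 hosts snoRNAs of both classes, SNORD99, SNORA16A, SNORA44 and SNORA61 (bundle at chromosome 1, 28879529 to 28908366, shared with TRNAU1AP). It had 45.2, 43.2 and 38.6 FPKM in miR-424 replicates 1, 2 and 3, against 48.5, 48.9 and 47.9 FPKM in EV replicates 1, 2 and 3. The EV libraries differed by less than 1 FPKM, and all 3 miR-424 libraries were lower. The log2 change of -0.19 ± 0.06 (SE; 95% interval -0.34 to -0.05) did not pass the test (limma with Benjamini-Hochberg, adjusted p = 0.114), and without replicate 3 it was -0.13 and passed (adjusted p = 0.00790), but not with the GC trend removed as well (-0.07, adjusted p = 0.0531). TRNAU1AP, in the same bundle, averaged 5.07 FPKM in miR-424 cells and 4.80 FPKM in EV cells. SNHG12 carries 1 seed match, close to its 5′ end.

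**Figure D3:**
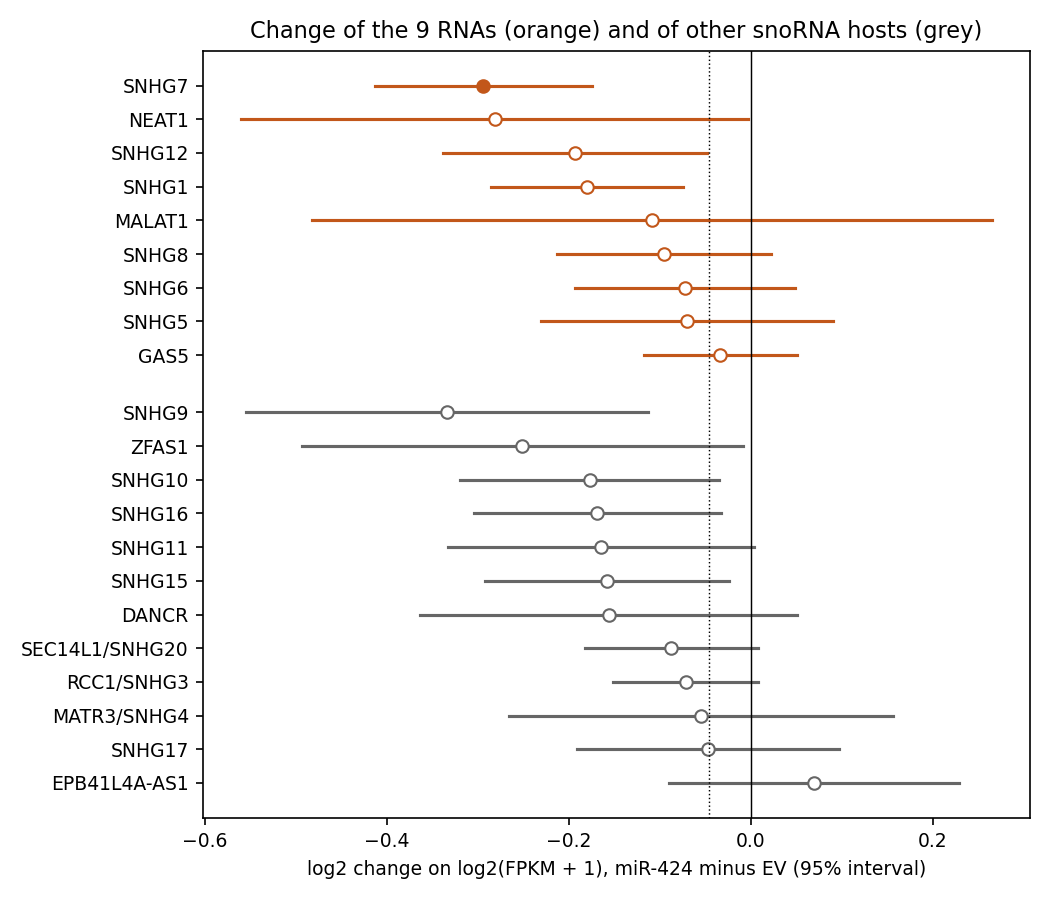
Log2 change, miR-424 minus EV, on the log2(FPKM + 1) scale with 95% intervals (limma, n = 3 each) for the 9 RNAs (orange) and 12 other snoRNA host loci (grey). Filled points passed the threshold, and the dotted line marks the median of all tested loci at -0.05; SNHG7 at -0.29 is the single filled point.

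The first bases of the host genes are shown because a C followed by further pyrimidines at the start is the hallmark of the growth-regulated class to which many hosts belong. In windows from RefSeq (GRCh38.p14) of 10 bases before to 20 bases after the start, all on the minus strand, the capitals mark the run of C and T letters that begins with a C at the start.
SNHG12, chr1:28581854-28581883: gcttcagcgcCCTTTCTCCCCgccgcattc
SNHG5, chr6:85678714-85678743: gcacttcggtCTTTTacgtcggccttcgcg
SNHG7, chr9:136728165-136728194: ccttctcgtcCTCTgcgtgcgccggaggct
SNHG1, chr11:62855866-62855895: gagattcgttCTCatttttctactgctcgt
The run is 11 letters long in SNHG12, 5 in SNHG5, 4 in SNHG7 and 3 in SNHG1. A run of at least 3 letters was found at 7.50% and one of at least 5 letters at 4.07% of 35116 starts in the same table. The start listed for SNHG8 had a run of 1 letter, as did 1 of the starts listed for MALAT1, and the start listed for GAS5 was an A. The table held starts for 7 of the 9 RNAs.

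The snoRNAs cut from these hosts had log2 changes on both sides of 0. The table listed 26 of them in rows of their own within 6 host bundles, and 24 were tested. In miR-424 cells 1 rose, SNORD79, and 0 fell, against 1.24% of tested loci that rose. The median log2 change of the 24 was -0.04, and 14 lay below 0, as did 68.3% of tested loci. Every miR-424 library lay below every EV library for 1 of the 24, against 26.9% of tested loci. The opposite was seen for 2 of the 24, against 6.59% of tested loci. FPKM values of RNAs this short can be unstable, since few fragments fit into them, and this was not tested here. Whether the reads of these rows came from cut snoRNAs or from uncut host RNA was not tested either. SNORD78 was listed at 0, 88.2 and 57.3 FPKM in miR-424 replicates 1, 2 and 3, against 22.9, 39.7 and 21.1 FPKM in EV replicates 1, 2 and 3.

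SNORD79, in the GAS5 bundle, had 37.7, 43.0 and 43.9 FPKM in miR-424 replicates 1, 2 and 3, against 35.0, 29.5 and 29.1 FPKM in EV replicates 1, 2 and 3. The groups were apart, and the log2 change was 0.40 ± 0.09 (SE; 95% interval 0.19 to 0.61; limma with Benjamini-Hochberg, adjusted p = 0.0431), while GAS5 itself was at -0.03. The call ended with no filter on low values (limma with Benjamini-Hochberg, adjusted p = 0.0707), without EV replicate 1, 2 or 3 (0.0593, 0.175 and 0.171) and without miR-424 replicate 1 or 2 (0.0569 and 0.116). It also ended with the replicate number as a block in the fit (limma with Benjamini-Hochberg, adjusted p = 0.113). SNORD79 had no matched transcript and was not in the fits with the GC trend removed.

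Other snoRNAs of GAS5 with high values were SNORD80 (83.8 FPKM on average in miR-424 cells and 87.3 FPKM in EV cells), SNORD47 (59.1 and 61.8 FPKM) and SNORD76 (57.7 and 47.6 FPKM). Their log2 changes were -0.05, -0.05 and 0.27 and did not pass the test. SNORD44 and SNORD77 were at 11.3 and 7.22 FPKM in miR-424 cells and 13.1 and 7.41 FPKM in EV cells. SNORD74 averaged 4.38 FPKM in miR-424 cells, with 0 FPKM in replicate 2, and 4.85 FPKM in EV cells. SNORD75 and SNORD81, under the minimum for testing, averaged 1.20 and 0 FPKM in miR-424 cells and 0.385 and 0 FPKM in EV cells.

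Within the SNHG1 bundle, 8 snoRNAs lay between 5.27 and 24.6 FPKM over the 6 samples, under the 84.7 FPKM of the host. SNORD25 had 8.47, 11.3 and 8.40 FPKM in miR-424 replicates 1, 2 and 3, against 6.20, 6.01 and 7.20 FPKM in EV replicates 1, 2 and 3. The groups did not overlap, but the log2 difference, 0.47 ± 0.12, missed the threshold (SE; limma with Benjamini-Hochberg, adjusted p = 0.0620). SNORD27 was lower in each miR-424 library, at 5.43, 6.92 and 7.43 FPKM against 8.44, 14.7 and 7.47 FPKM in EV replicates 1, 2 and 3 (log2 change -0.52 ± 0.23, SE; limma with Benjamini-Hochberg, adjusted p = 0.242). The log2 changes of SNORD22, SNORD26, SNORD28, SNORD29, SNORD30 and SNORD31 were -0.23, 0.16, -0.04, 0.45, -0.22 and -0.29, each with an interval that spans 0.

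In SNHG5 the snoRNAs SNORD50A and SNORD50B averaged 1.79 and 6.31 FPKM in miR-424 cells and 2.45 and 5.89 FPKM in EV cells, far below their host. SNORD87, in SNHG6, was at 9.77 FPKM in miR-424 cells and 9.69 FPKM in EV cells. Of the H/ACA class, SNORA61 stood out by a level close to that of its host SNHG12. It had 47.3, 53.9 and 67.2 FPKM in miR-424 replicates 1, 2 and 3, against 55.3, 56.0 and 53.1 FPKM in EV replicates 1, 2 and 3, with a log2 change of 0.02 ± 0.12 (SE; limma with Benjamini-Hochberg, adjusted p = 0.945). SNORA24, in SNHG8, was at 9.01 FPKM in miR-424 cells and 7.88 FPKM in EV cells. SNORA44, SNORA16A and SNORD99, the others in SNHG12, had log2 changes of -0.02, 0.04 and -0.08. SNORA61 (chr1:28579764-28579893, minus strand) and SNORA24 (chr4:118279190-118279320, plus strand), as given by GENCODE 29 on GRCh38, are shown as examples of the H/ACA class, with the ACA box, 3 bases from the 3′ end, in capitals.
SNORA61: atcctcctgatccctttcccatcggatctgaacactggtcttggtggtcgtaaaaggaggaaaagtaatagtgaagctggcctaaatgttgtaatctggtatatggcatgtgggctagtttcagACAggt
SNORA24: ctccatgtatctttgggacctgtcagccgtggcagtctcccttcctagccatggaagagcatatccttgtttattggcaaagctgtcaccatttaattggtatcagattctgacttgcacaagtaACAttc
SNORA61 is 130 and SNORA24 131 bases long.

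**Figure D4:**
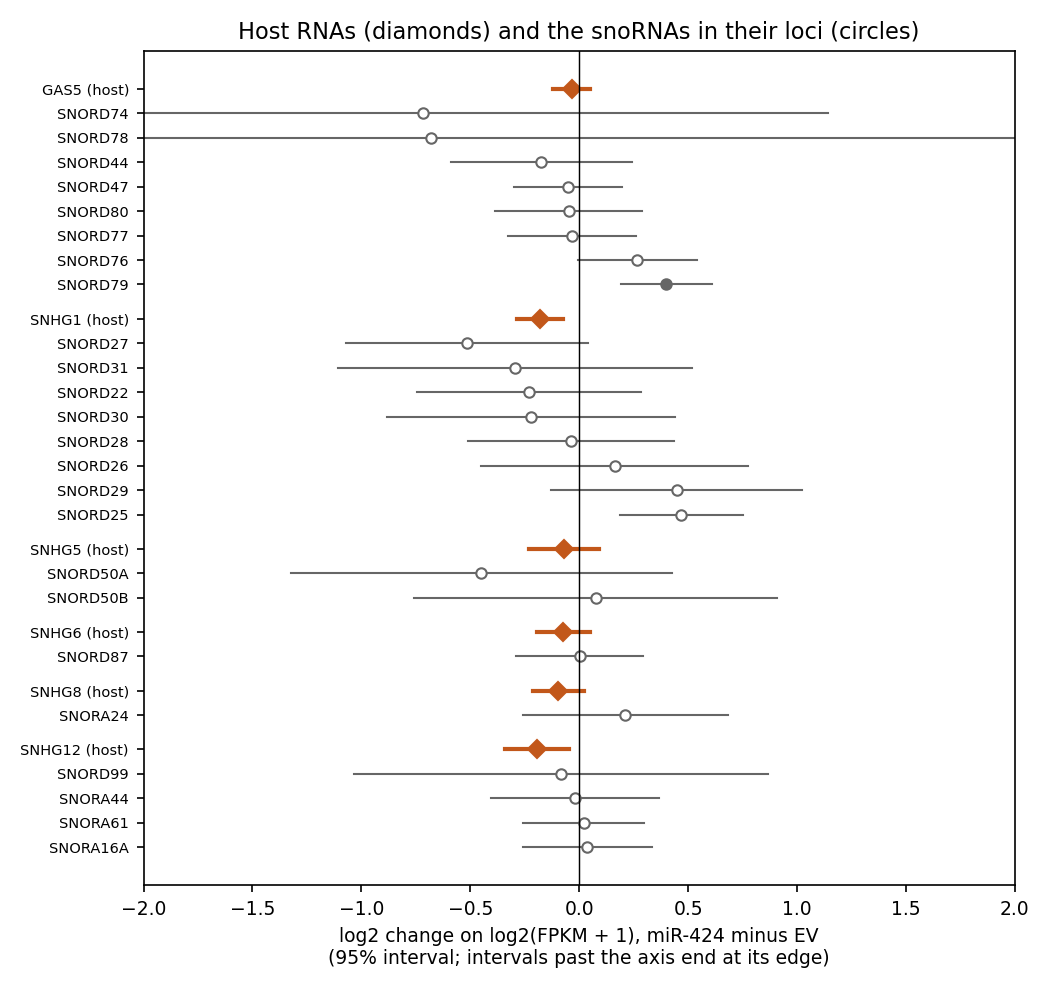
Log2 change, miR-424 minus EV, on the log2(FPKM + 1) scale with 95% intervals (limma, n = 3 each) for 6 host RNAs (orange diamonds) and the 24 tested snoRNAs listed within their loci (grey circles, filled where past the threshold). snoRNA intervals are wider than those of their hosts, and SNORD79 at 0.40 is the single filled circle.

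Other snoRNA hosts without a long reading frame of their own also had small log2 changes, mostly below 0. Of 15 such genes, 13 were listed and 12 tested, and 0 passed the limma test in either direction, against 7.56% of tested loci. An unadjusted p under 0.05 (limma) was seen for 5 of the 12, and for 2732 of all 11574 tested loci. The median log2 change of the 12 was -0.16, beside -0.05 over all tested loci. Changes below 0 were seen for 11 of 12, as for 68.3% of loci. With median-of-ratios scaling, however, SNHG17 and the row of SNHG4 were at 0.0063 and 0.0011. For 8 of the 12 the miR-424 libraries all lay below the EV libraries, against 26.9% of loci. ZFAS1 had 265, 258 and 202 FPKM in miR-424 replicates 1, 2 and 3, against 293, 290 and 275 FPKM in EV replicates 1, 2 and 3 (log2 change -0.25 ± 0.10, SE; limma with Benjamini-Hochberg, adjusted p = 0.197). SNHG3, in a row shared with the protein-coding gene RCC1, averaged 93.9 FPKM in miR-424 cells and 98.7 FPKM in EV cells. Rows shared with a protein-coding gene were also those of SNHG4 (with MATR3) and SNHG20 (with SEC14L1). Without miR-424 replicate 3, 8 of the 12 fell, against 22.2% of loci, and without that replicate and with the GC trend removed 4 fell, against 15.1% of loci.

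Protein-coding hosts of snoRNAs, a list that shares the row of RCC1 and SNHG3 with the list above, lay closer to 0. Of 18 tested, 0 passed the limma test, against 7.56% of tested loci, and the median log2 change was -0.02. An unadjusted p under 0.05 (limma) was seen for 1 of the 18, and for 2732 of all 11574 tested loci. TPT1 averaged 1630 FPKM in miR-424 cells and 1608 FPKM in EV cells, and the chaperone gene HSPA8 979 and 939 FPKM. Genes of snoRNP proteins, the partners of the snoRNAs, had a median of -0.0033 with 0 of 18 past the limma threshold (2 at an unadjusted p under 0.05). NOP56 and DKC1 were counted both there and among the protein-coding hosts. Fibrillarin (FBL), the methyltransferase of box C/D particles, had a log2 change of 0.08 ± 0.05, and NOP56, in a row shared with MIR1292 and SNORD86, of 0.08 ± 0.08 (SE). Without miR-424 replicate 3, 5 protein-coding hosts passed (2 higher and 3 lower) and 8 snoRNP genes (4 higher and 4 lower). In that setting 37.2% of all tested loci passed.

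The protein partners of NEAT1 and MALAT1 did not pass the test either. Over all 11574 tested loci, 7.56% passed and 2732 had an unadjusted p under 0.05 (limma). Of 19 paraspeckle protein genes 0 passed (limma; 2 at an unadjusted p under 0.05), with a median log2 change of -0.05. HNRNPA1, listed with a pseudogene, averaged 536 FPKM in miR-424 cells and 572 FPKM in EV cells, and HNRNPK 323 and 333 FPKM. Of 18 nuclear speckle genes 0 passed (limma; 0 at an unadjusted p under 0.05), with a median of -0.04. SRSF2, in a row shared with MIR636, and SRSF3, both splicing factors, had log2 changes of -0.06 ± 0.04 and -0.11 ± 0.08 (SE). Of 12 genes of nonsense-mediated decay 0 passed (limma; 2 at an unadjusted p under 0.05), with a median of -0.03, and UPF1, its helicase, averaged 28.4 FPKM in miR-424 cells and 29.2 FPKM in EV cells. SMG5, which takes part in the dephosphorylation of UPF1, averaged 21.5 FPKM in both groups. Without miR-424 replicate 3, 5 paraspeckle genes passed (2 higher and 3 lower), 1 speckle gene (higher) and 3 decay genes (1 higher and 2 lower), against 37.2% of all tested loci in that setting.

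Of 25 further long noncoding or structural RNAs, 16 were tested and 1 passed, DLEU1, against 7.56% of all tested loci. DLEU1 is a noncoding RNA of the chromosome 13 region that also holds the MIR15A and MIR16-1 genes. DLEU1 (bundle at 50556688 to 50699677, hg19) fell to 25.5, 25.8 and 22.6 FPKM in miR-424 replicates 1, 2 and 3, against 30.1, 30.9 and 32.3 FPKM in EV replicates 1, 2 and 3. The log2 change was -0.32 ± 0.06 (SE; limma with Benjamini-Hochberg, adjusted p = 0.0255). The call ended without EV replicate 1, 2 or 3 (limma with Benjamini-Hochberg, adjusted p = 0.0993, 0.115 and 0.129) and without miR-424 replicate 1 (0.0632). It also ended with the replicate number as a block in the fit (limma with Benjamini-Hochberg, adjusted p = 0.0759). The median log2 change of the 16 was -0.09.

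Over the 6 libraries, the pattern of each RNA around its EV mean was compared with 8304 loci of at least 5 FPKM by the root mean square difference of the log2 values, given without a test. Nearest to MALAT1 were CDKN1B (0.0306), TTC14 (0.0312) and RAP2C (0.0316), beside a median of 0.195 over loci. Nearest to NEAT1 were RAD51AP1 (0.0165), LOC729080 (0.0187) and FBXO5 (0.0202), beside a median of 0.218. Nearest to GAS5 were SH3GLB2 (0.0088), P4HB (0.0131) and TMEM94 (0.0137), beside a median of 0.0983. Among the other 8 RNAs, the nearest to MALAT1 was SNHG5 (rank 1163 of the loci), the nearest to NEAT1 was SNHG12 (rank 493) and the nearest to GAS5 was SNHG6 (rank 1211).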

How the data were processed

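RNA from 3 cultures of each of 2 groups of MCF12A cells was sequenced, and the authors deposited their FPKM values (fragments scaled by transcript length and by mapped fragments) as 1 table with a column per sample. The submitters' processing notes name hg19 and GRCh37 as builds and TopHat 1.4.1, Cufflinks 1.3.0 and Cuffdiff as tools, with neither role nor order. For the annotation, read numbers, scaling between libraries and use of strand, the sources used here give nothing. Overlapping genes on opposite strands may therefore share reads. Low values held no sharp step of whole fragments (4.32% to 8.59% of low loci lay within 0.015 log2 of the commonest ratio to EV replicate 1), so the depth is unknown and no counting interval is given.

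The test was run on log2(FPKM + 1) for loci whose mean over all samples reached 1 FPKM. It was limma 3.58.1 (R 4.3.3), two-sided, without covariates and with the prior variance following a trend, and p was adjusted by Benjamini-Hochberg over all tested loci with a threshold of 0.05. Log2 changes on this scale are too small for loci of low FPKM. The procedure was tested on simulated data with values drawn independently for each library. These held neither a deviating replicate nor a trend on GC content, so they say nothing on either. Alternatives were another pseudocount, other filters, median-of-ratios scaling, quantile normalization, removal of the trend on transcript GC content, the replicate number as a block, no trend in the prior variance and leaving out each library.

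Loci were matched to gene names by RefSeq accession. Transcript sequences and their GC content came from GENCODE 29 (GRCh38), matched by accession or symbol and never by coordinate, for 99.1% of tested loci. In each list other than the 9 RNAs and their snoRNAs, the named loci are those past the threshold, at most 4 by smallest adjusted p, and where none passed the 2 of highest mean. The members and the lists were chosen with earlier results of these data known. A marker of the leukocyte list is not reported here.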

Additional observations from a re-analysis of the deposited data

How the results depend on the processing

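Depth is unknown, so counting error could not be set beside the spread between libraries, and snoRNA intervals were wider than those of their hosts. Of all tested loci 875 passed, against 575 at a minimum of 5 FPKM, 1514 with the GC trend removed, 3426 without miR-424 replicate 3 and with the GC trend removed, and 110 to 4302 when single libraries were left out. Of the 9 RNAs 0 passed after median-of-ratios scaling and 0 after quantile normalization, 2 with the GC trend removed, 4 without miR-424 replicate 3 and with it removed, and 0 to 6 when single libraries were left out. Of their snoRNAs 0 passed with no filter on low values, 2 with median-of-ratios scaling, 2 with quantile normalization and 0 to 3 with libraries left out. Other host RNAs past the threshold numbered 1 with no filter, 1 with the GC trend removed and 0 to 8 with libraries left out, and further long noncoding RNAs 2 with the GC trend removed and 0 to 8. Leaving out libraries gave 0 to 5 protein-coding hosts, 0 to 8 snoRNP genes, 0 to 5 paraspeckle genes, 0 to 1 speckle genes and 0 to 3 decay genes. The highest number of each list came without miR-424 replicate 3, where 37.2% of all tested loci passed. Without miR-424 replicate 3 and with the GC trend removed, 3426 of 11472 loci passed. Beside this share, the other host RNAs gave 4 of 12 (0 higher) and the further long noncoding RNAs 5 of 16 (2 higher). Protein-coding hosts gave 3 of 18 (3 higher), snoRNP genes 6 of 18 (4 higher) and paraspeckle genes 6 of 19 (3 higher). Speckle genes gave 3 of 18 (2 higher) and decay genes 2 of 12 (2 higher). List sizes are those tested in the main fit. Log2 changes turned above 0 for GAS5 (0.023 with median-of-ratios scaling, 0.00069 with the GC trend removed), the MATR3/SNHG4 row (0.0011 with median-of-ratios scaling, -0.12 to 0.052 with libraries left out), SNHG17 (0.0063 with median-of-ratios scaling, 0.0085 with quantile normalization, 0.020 with the GC trend removed, -0.10 to 0.00020 with libraries left out, the highest without miR-424 replicate 1), SNHG5 (-0.12 to 0.0074) and MALAT1 (-0.22 to 0.086, and 0.039 without miR-424 replicate 3 and with the GC trend removed); the MATR3/SNHG4 row, SNHG5 and MALAT1 were highest without miR-424 replicate 3. Scaling alone moved the median of all loci to 0.0033 (median-of-ratios) and 0.0057 (quantile), and the causes of these changes were not tested.

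Same-numbered libraries of the 2 groups correlated at 0.05, 0.15 and 0.13 in their deviations over loci. Each miR-424 replicate correlated best with the EV library of its own number. EV replicate 1, however, correlated slightly better with miR-424 replicate 2 (0.0613) than with miR-424 replicate 1 (0.0509). The labels do not say whether the numbers pair samples, and the main fit did not take them to. With the replicate number as a block 349 loci passed, 0 of the 9 RNAs, 0 of their snoRNAs and 0 further long noncoding RNAs. With the block and the GC trend removed 936 loci, 1 of the 9 RNAs (SNHG7), 1 snoRNA and 2 further long noncoding RNAs passed. GAS5 stood there at 0.00069 and SNHG17 at 0.020. The snoRNA was not SNORD79, since SNORD79 and the other snoRNAs of GAS5 had no matched transcript and were not in that fit.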
